A study of Mus musculus with 6 samples.

Results

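The mitochondrial genome is a small circular DNA that carries 37 genes, 13 of them for subunits of the respiratory chain and the ATP synthase, 2 for the ribosomal RNAs of the mitochondrial ribosome and 22 for transfer RNAs. All 37 were chosen by name, as the genes whose GENCODE M21 symbol starts with mt-. They all lie on the mitochondrial chromosome, and all 37 were present among the 43346 genes of the deposited count table. RNA had been sequenced from primary mouse embryonic fibroblasts (MEFs, cells grown out of mouse embryos) of the C57BL/6 strain at passage 9, with 3 libraries from cells treated for 24 h with 3 µM erastin and 3 from cells given the solvent DMSO. Erastin inhibits the exchanger that brings cystine into the cell, and cells deprived of cystine in this way can die by ferroptosis, a death that runs through iron-dependent oxidation of membrane lipids. Cells of both groups were grown in serum-containing medium that also held nonessential amino acids, antibiotics and 2-mercaptoethanol. The labels describe a triplicated experiment but not whether replicates came from separate embryo preparations, so p-values measure the spread between these libraries, which may be technical.

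Both strands of mitochondrial DNA are transcribed into long RNAs that span many genes. Transfer RNAs sit between most of the other genes, and their excision at both ends frees the messenger and ribosomal RNAs. Nearly all coding genes lie on the transcript of the heavy strand, and mt-Nd6 is the coding gene of the light-strand transcript. The proteins of this machinery, from the RNA polymerase to the nucleases and the poly(A) polymerase, are encoded in the nucleus and imported.

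Total counts per library were 13333911 to 20509970, of which 83014 to 198440 fell in the mitochondrial genes. Pairs of libraries of one group differed with a chi-square of 11 to 19.2 per degree of freedom, so no libraries agreed within sampling noise and each was used as 1 replicate. All 12 fibroblast markers on the list used here were detected, with summed levels of 38038 to 41932 CPM (counts relative to the library total, scaled with TMM factors) under DMSO and 28285 to 29693 CPM under erastin. Of these 12, 9 were called lower with erastin and 3 did not pass, beside 21.5% of all genes tested that were called lower. Markers of other cell types summed to 121 to 156 CPM under DMSO and 116 to 142 CPM under erastin for neural cells, 35.5 to 45.4 and 65.0 to 68.5 CPM for muscle (nearly all Des, called higher), 22.03 to 41.4 and 26.9 to 55.7 CPM for blood leukocytes and macrophages, 14.4 to 17.5 and 15.0 to 26.9 CPM for epithelium, 2.22 to 4.76 and 7.66 to 10.01 CPM for endothelium (mostly Kdr, called higher) and at most 0.078 CPM for adipocytes. Of the neural markers, Tubb3 was called lower and Nes higher. The part of these marker differences in the mitochondrial results was not tested. Ribosomal RNA had been depleted and library fragments had been selected by size before sequencing, which bears on the ribosomal and transfer RNA levels below.

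Before the levels, 2 features of sequence are described that may bear on the results. The first concerns the transfer RNAs, which are short. The 3 that differed between the groups and the most counted of those that did not are shown here as genes of the reference (GENCODE M21 transcripts, GRCm38), with the anticodon in capitals, taken as the triplet for the named amino acid that lies nearest to the middle after a pyrimidine. All 4 lie on the plus strand of the mitochondrial chromosome, mt-Tv (valine) at chrM:1025-1093, mt-Tl1 (leucine, UUR codons) at chrM:2676-2750, mt-Tm (methionine) at chrM:3845-3913 and mt-Tt (threonine) at chrM:15289-15355.
mt-Tv: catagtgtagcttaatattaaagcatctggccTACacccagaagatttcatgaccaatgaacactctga
mt-Tl1: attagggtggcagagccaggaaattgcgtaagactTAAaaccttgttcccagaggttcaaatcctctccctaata
mt-Tm: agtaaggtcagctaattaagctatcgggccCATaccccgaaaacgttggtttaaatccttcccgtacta
mt-Tt: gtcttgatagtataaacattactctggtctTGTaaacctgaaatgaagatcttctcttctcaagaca

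The second is that part of the mitochondrial genome has a near-identical copy in nuclear DNA. GENCODE M21 holds 7 pseudogenes in a row on chromosome 1 (chr1:24611535-24616197, minus strand, GRCm38) that match the stretch chrM:6381-11042. Over their aligned lengths the copies of mt-Co2, mt-Atp6, mt-Co3, mt-Nd4l and of the first 876 bases of mt-Nd4 had 0 differences from the mitochondrial genes. The copy of mt-Nd3 had 1 and Gm29216, the copy of the end of mt-Co1, had 6. Those 6 run from T1056A to A1066T of mt-Co1, at the start of the copied part, and the rest of it is identical. The difference in mt-Nd3 is T3C, counted from 1 at the first base of mt-Nd3, and is shown in capitals in the first 33 bases of the gene (chrM:9459-9491, plus strand) and of its copy Gm28438 (chr1:24613087-24613119, minus strand).
mt-Nd3: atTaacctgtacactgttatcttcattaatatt
Gm28438: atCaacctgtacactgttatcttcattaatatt

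Levels differed along this map. Expressed per kb of gene so that genes can be compared, the 5 coding genes outside the copied stretch (mt-Nd1, mt-Nd2, mt-Nd5, mt-Nd6 and mt-Cytb) had mean DMSO levels of 32.4 to 561 CPM per kb, with a median of 239.5. The 6 genes that lie whole within it (mt-Co2, mt-Atp8, mt-Atp6, mt-Co3, mt-Nd3 and mt-Nd4l) had 1.20 to 18.0 CPM per kb, with a median of 13.9, and all 6 lay below every gene outside it. mt-Co1 and mt-Nd4, which lie partly within the stretch, had 605 ± 37.6 and 128 ± 1.35 CPM per kb (SD, n = 3). Erastin libraries showed the same separation, with 27.0 to 604 CPM per kb outside the stretch and 1.63 to 22.2 within it. Of all 50-base windows of each gene, 98.0% to 100% in mt-Co2, mt-Atp6, mt-Co3, mt-Nd3 and mt-Nd4l also occurred in another annotated gene, against 0% to 8.2% in the 5 genes outside. In mt-Co1 and mt-Nd4 the percentages were 51.1% and 62.2%. The best matches of mt-Co1 and mt-Nd2 lay on chromosome 2, in Gm13340 (97.6% identity over 1545 bases) and Gm13339 (96.7% over 510 bases). mt-Atp8 had 0% because no annotated pseudogene covers its place in the copy except at its end, where Gm10925 overlaps it by fewer bases than 1 window. How the authors treated reads that match several places is not given in the sources used here, and its part in these levels was not tested. The counts of the 6 genes are not read here as their abundance relative to other mitochondrial messengers.

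**Figure D1:**
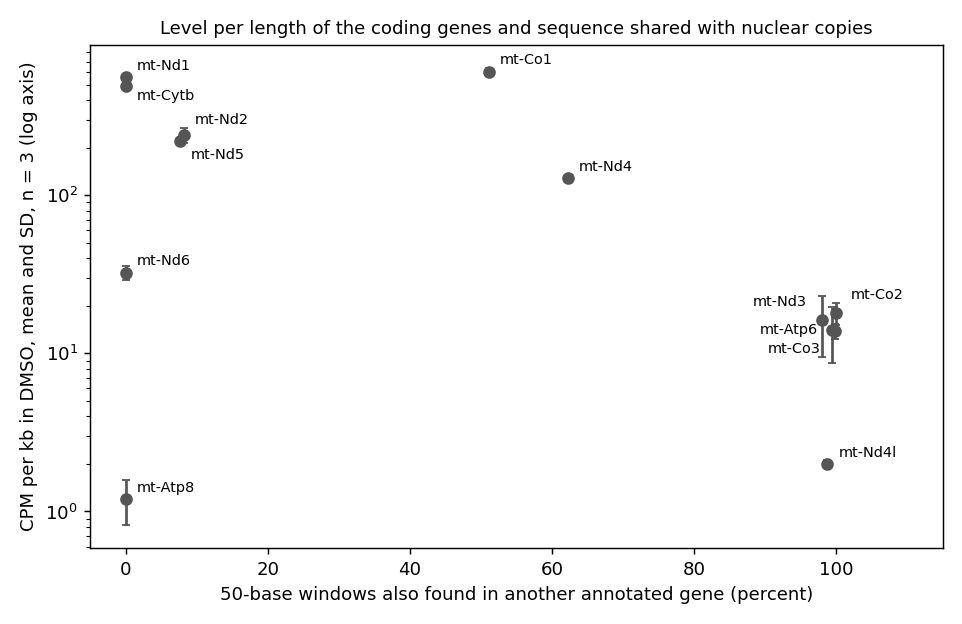
Mean level of the 13 coding genes in the 3 DMSO libraries (CPM per kb, log axis, bars are SD) against the percentage of their 50-base windows that also occur in another annotated gene. The 5 genes at or above 98.0% lie at or below 18.0 CPM per kb, and mt-Atp8 lies low at 0%, since annotated pseudogenes overlap it by less than 1 window.

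Levels also differed widely among the ribosomal RNA genes and the coding genes that do not lie whole in the copied stretch. In DMSO libraries mt-Rnr2 stood at 2060 ± 400.2 CPM per kb (SD, n = 3), followed by mt-Co1 at 605 ± 37.6, mt-Nd1 at 561 ± 7.16, mt-Rnr1 at 528 ± 156 and mt-Cytb at 493 ± 15.9. mt-Co1 and mt-Nd1 differed by little more than the SD of mt-Co1, and mt-Rnr1 could not be told from any of its 3 neighbours in this order. mt-Nd2 at 239.5 ± 26.4 and mt-Nd5 at 219 ± 8.004 CPM per kb were within their spread of each other. mt-Nd4 stood at 128 ± 1.35, and mt-Nd6, the light-strand gene for a membrane subunit of complex I, was lower at 32.4 ± 3.35. Ribosomal RNA levels are those left after depletion. In mt-Co1 and mt-Nd4, 51.1% and 62.2% of the 50-base windows occur in another gene. The order is therefore one of counts and is not read as one of abundance.

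The question put to these genes by the design is whether mitochondrial transcripts changed in cells under erastin. As a share of all counts, the 37 genes took 0.623%, 0.728% and 0.635% under DMSO and 0.968%, 1.101% and 1.01% under erastin, given here and below in the order of replicates 1, 2 and 3. All erastin libraries lay above all DMSO libraries, and the ratio of the means was 1.55 (exact permutation test, two-sided, p = 0.1, the smallest that 3 against 3 allows; adjusted p = 0.175 over the 7 shares and ratios tested). Most of the difference was ribosomal RNA, whose share was 0.368% ± 0.0700 under DMSO and 0.675% ± 0.112 under erastin (mean ± SD, n = 3; exact permutation p = 0.1). The coding genes took 0.285% ± 0.00931 and 0.348% ± 0.0524 (mean ± SD, n = 3; exact permutation p = 0.1), again with no overlap, and the difference of 0.0628 percentage points was 0.0326 without erastin replicate 1. The transfer RNA share was 0.00995% ± 0.00983 under DMSO and 0.00274% ± 0.000954 under erastin and overlapped between the groups (mean ± SD, n = 3; exact permutation p = 0.2). Its difference of -0.00721 percentage points was -0.00158 without DMSO replicate 3. In bulk RNA, fewer cells of a kind and less RNA per cell cannot be told apart, and a larger mitochondrial share can also come from fewer counts elsewhere.

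**Figure D2:**
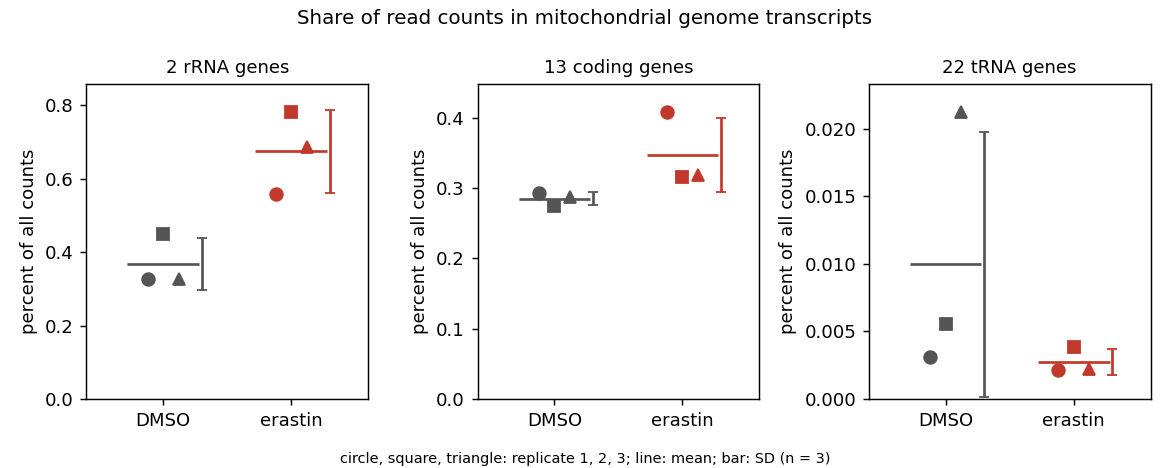
Percentage of all counts in the 2 ribosomal RNA, 13 coding and 22 transfer RNA genes, with each library as a point, the mean as a line and the SD as a bar (n = 3). The rRNA and coding shares of the erastin libraries lie above those of all DMSO libraries, and the tRNA share of DMSO replicate 3 lies at 0.0212%, far above the other 5 libraries.

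mt-Rnr2 (ENSMUSG00000064339.1, chrM:1094-2675, plus strand), the 16S RNA of the large mitochondrial ribosomal subunit, was the clearest riser. It stood at 2957, 3986 and 2833 CPM under DMSO and at 4851, 6787 and 6050 CPM under erastin, in replicates 1, 2 and 3. Every erastin library lay above every DMSO library, a rise of 1.81-fold with a 95% interval of 1.5 to 2.18 (log2 fold change 0.86, SE 0.12, edgeR adjusted p = 6.5e-05). It passed in all 17 alternative settings run, with log2 fold changes of 0.67 to 1.03. mt-Rnr1 (chrM:70-1024, plus strand), the 12S RNA of the small subunit, had 335, 612 and 567 CPM under DMSO and 471, 1072 and 658 CPM under erastin. Its groups overlapped and it did not pass (log2 fold change 0.54, SE 0.24, edgeR adjusted p = 0.081). Leaving out single libraries moved it both ways. The log2 fold change was 0.78 without erastin replicate 1 (edgeR adjusted p = 0.0169), 0.16 without erastin replicate 2 (adjusted p = 0.56) and 0.31 without DMSO replicate 1 (adjusted p = 0.319), and 0.60 with scaling by total count (adjusted p = 0.0355). mt-Rnr1 passed in 5 of its 17 alternatives. Among these were the replicate block (log2 fold change 0.51, edgeR adjusted p = 0.000544) and no filter (0.55, edgeR adjusted p = 5.5e-12). With no filter, mt-Tv, whose groups overlapped, had an edgeR adjusted p of 4.4e-57, so p-values of that setting are not read as strength. mt-Rnr1 did not pass with DESeq2 (0.538, DESeq2 adjusted p = 0.322). Nor did it pass after an offset for GC content and transcript length (0.355, edgeR adjusted p = 0.3). Among all 14000 genes tested, 43.1% were called in either direction, 21.6% as higher and 21.5% as lower, so 1 of 2 ribosomal RNAs called is no departure from the rest. The amount of ribosomal RNA in a library also depends on how well it was depleted. The 4 most counted genes of the table were Gm42418, Mir6236, Lars2 and Gm26917. Together they took 15.1% to 15.5% of counts under DMSO and 12.4% to 14.9% under erastin. Without these 4 in the denominator, the ribosomal RNA share differed by 0.3516 percentage points, against 0.3075 with them (exact permutation p = 0.1 in each case). Any link of these 4 genes to the depletion was not tested.

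Counts of ribosomal RNA per count of coding RNA were 1.12, 1.63 and 1.14 under DMSO and 1.37, 2.48 and 2.15 under erastin. DMSO replicate 2 lay above erastin replicate 1, so the groups overlapped (log2 difference 0.60, exact permutation p = 0.2, adjusted p = 0.2 over 7). mt-Rnr2 had 4.998 to 8.83 counts per count of mt-Rnr1 under DMSO and 6.33 to 10.3 under erastin.

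Of the 13 coding genes, 12 passed the filter on low counts (mt-Atp8, with 2 to 7 reads per library, did not), and 5 of them were higher with erastin and 0 lower at an adjusted p-value under 0.05. The background was 21.6% for calls as higher and 43.1% for calls in either direction. At an unadjusted p under 0.05, mt-Nd1 also passed, as lower, and DESeq2 called the same number as edgeR, 5 higher and 0 lower. The median log2 fold change of the 12 was 0.25, with a range of -0.25 to 0.96, against a median of -0.0014 over all genes tested. The groups did not overlap in 7 of the 12, against 52.5% of all genes tested. The rises were small, with log2 fold changes of 0.21 to 0.49 in the 5 genes.

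Complex I takes electrons from NADH, and 7 of its subunits are mitochondrial. Of these, 3 were higher and 0 lower, beside 21.6% of all genes tested that were called higher. mt-Nd4 (ENSMUSG00000064363.1), a proton-pumping membrane subunit, had 174.9, 176 and 178.5 CPM under DMSO and 296, 236 and 210.4 CPM under erastin (log2 fold change 0.49, SE 0.10, edgeR adjusted p = 0.00137). mt-Nd2, another such subunit, had 279, 240.3 and 226 CPM under DMSO and 402, 295 and 305 CPM under erastin (log2 fold change 0.43, SE 0.11, edgeR adjusted p = 0.00603). mt-Nd5, the largest of them, had 416, 387 and 397 CPM under DMSO and 626, 439.9 and 484 CPM under erastin (log2 fold change 0.37, SE 0.10, edgeR adjusted p = 0.00974). In all 3 genes the groups did not overlap, and erastin replicate 1 was the highest library. mt-Nd3 and mt-Nd4l, small subunits that lie in the copied stretch, had log2 fold changes of 0.063 and 0.96 and did not pass (95% intervals -0.58 to 0.70 and -0.31 to 2.24).

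mt-Nd1 (ENSMUSG00000064341.1, chrM:2751-3707, plus strand), the complex I subunit at the quinone-binding end and which lies next to mt-Tl1, was not among the genes called. It had 537, 529 and 543 CPM under DMSO and 541, 456 and 422 CPM under erastin, where erastin replicate 1 overlapped the DMSO range (log2 fold change -0.18, SE 0.08, edgeR adjusted p = 0.0968). Read against the other coding genes its shift was uniform. mt-Nd1 took 18.2%, 18.8% and 18.2% of all coding counts under DMSO and 13.9%, 14.4% and 13.5% under erastin, a description chosen after its values were seen. mt-Cytb took 19.3% ± 0.124 and 20.3% ± 0.479, and mt-Co1 32.0% ± 1.38 and 31.9% ± 1.96 (SD, n = 3 each).

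mt-Nd6 (chrM:13552-14070, minus strand) had 17.3, 14.9 and 18.2 CPM under DMSO and 15.5, 12.3 and 14.3 CPM under erastin, with overlap (log2 fold change -0.25, SE 0.16, edgeR adjusted p = 0.23). Set against the 12 heavy-strand coding genes, it had 0.590, 0.530 and 0.615 counts per 100 of theirs under DMSO and 0.3995, 0.388 and 0.461 under erastin. This ratio of light-strand to heavy-strand coding counts was lower in 3 of 3 erastin libraries than in any DMSO library (log2 difference -0.48, exact permutation p = 0.1, adjusted p = 0.175 over 7). mt-Nd6 lies opposite heavy-strand RNA of the same region, and whether strand was used in counting is not given in the sources used here.

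mt-Cytb, the cytochrome b subunit of complex III, had 567, 544 and 580 CPM under DMSO and 810.4, 643 and 619 CPM under erastin, without overlap (log2 fold change 0.29, SE 0.09, edgeR adjusted p = 0.0171). Of the 3 complex IV subunits, which form the core of cytochrome c oxidase, only mt-Co1 passed. mt-Co1, which binds the heme groups of that enzyme, had 911, 891 and 999.9 CPM under DMSO and 1155, 1054 and 1023 CPM under erastin, where the lowest erastin library lay just above the highest DMSO library (log2 fold change 0.21, SE 0.07, edgeR adjusted p = 0.0316). mt-Co2 had 10.5 to 14.5 CPM under DMSO and 14.9 to 15.35 CPM under erastin and mt-Co3 had 9.98 to 12.2 and 8.26 to 11.6 CPM. Neither passed, at log2 fold changes of 0.31 and -0.11. mt-Atp6, the membrane subunit of the ATP synthase through which protons pass, had 7.08 to 13.8 CPM under DMSO and 7.0 to 15.8 CPM under erastin and did not pass (log2 fold change 0.14, 95% interval -0.51 to 0.80). mt-Atp8, its small neighbour, had 2 to 5 reads under DMSO and 6 to 7 under erastin and was not tested. The genes mt-Atp8 (chrM:7766-7969) and mt-Atp6 (chrM:7927-8607) overlap, as do mt-Nd4l (chrM:9877-10173) and mt-Nd4 (chrM:10167-11544) and, on opposite strands, mt-Nd5 (chrM:11742-13565) and mt-Nd6, so reads at those ends are uncertain.

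**Figure D3:**
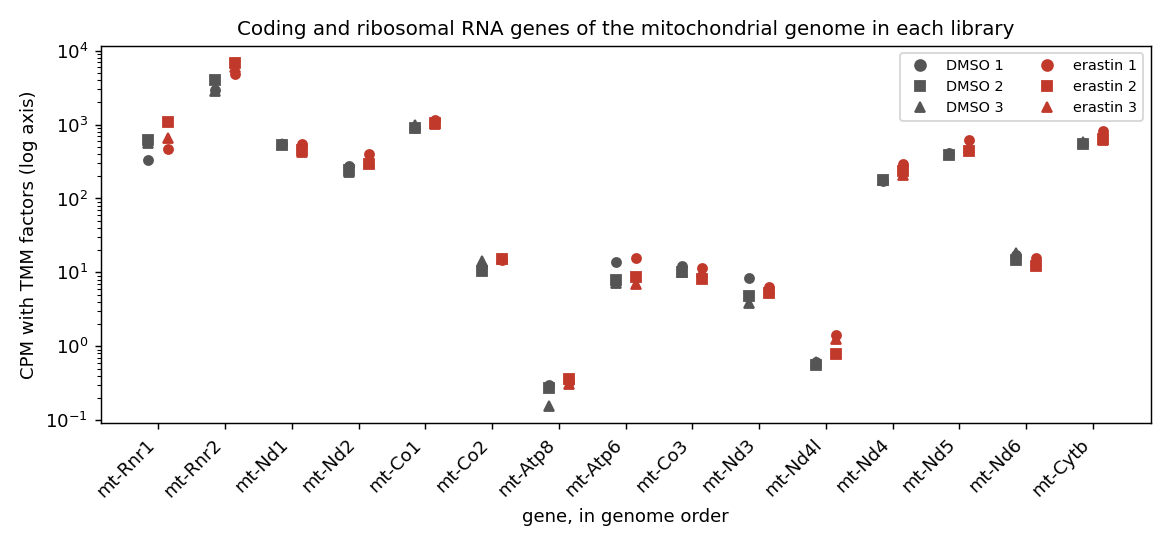
CPM of the 2 ribosomal RNA and 13 coding genes in each of the 6 libraries (log axis), in genome order. The genes from mt-Co2 to mt-Nd4l, which lie whole in the stretch copied on chromosome 1, stand at or below 15.8 CPM, mt-Nd6 lies between 12.3 and 18.2 CPM, and the other coding genes stand at or above 174.9 CPM.

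Of the 5 coding gene calls, 4 were lost without 1 library and after an offset for base composition and length. Without erastin replicate 1, which had the highest coding share (0.408% against 0.316% and 0.319%), mt-Nd4 alone was higher and mt-Nd1 passed as lower, at a log2 fold change of -0.29 (edgeR adjusted p = 0.0147). The same pair of calls was left after an offset that removed trends with GC content and transcript length from each library, under which mt-Nd2, mt-Nd5, mt-Cytb and mt-Co1 had log2 fold changes of 0.24, 0.16, 0.12 and 0.049, with edgeR adjusted p-values of 0.0631 to 0.689. Mitochondrial coding genes have 31.9% to 41.1% GC against a median of 49.7% over the genes tested, and the mean GC content of the counted transcripts was 51.9% to 52.1% under DMSO and 51.2% to 51.6% under erastin. Without DMSO replicate 2, mt-Nd4, mt-Nd2 and mt-Nd5 passed and mt-Cytb and mt-Co1 did not. mt-Co1 also missed the threshold at about the same log2 fold change without DMSO replicate 1 (0.19) and without erastin replicate 2 (0.22), and at 0.15 with upper-quartile factors. mt-Nd4 passed in all 18 alternatives run for it, with log2 fold changes of 0.29 to 0.60. Adding the counts of the chromosome 1 copies to their mitochondrial partners left 5 genes higher, but this could hardly change a call. Of the 5, only mt-Co1 and mt-Nd4 have such a copy. The copies had 91 to 249 and 24 to 73 reads, beside 12058 to 24800 and 2293 to 6363 for the genes.

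**Figure D4:**
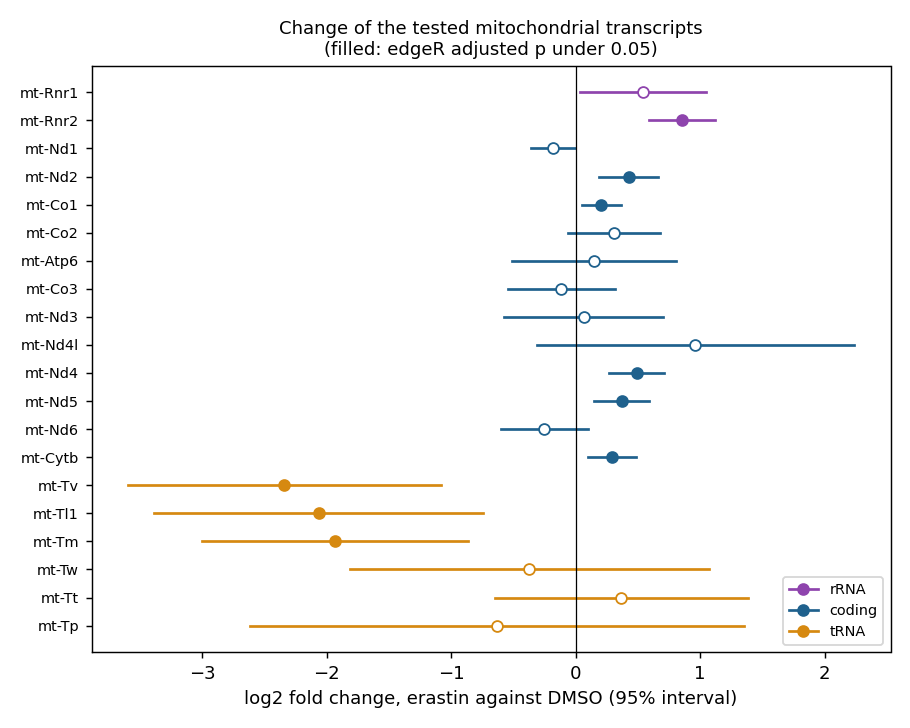
Log2 fold change with its 95% interval for the 20 mitochondrial genes that passed the filter on low counts, filled where the edgeR adjusted p-value was under 0.05. mt-Rnr2 and 5 coding genes lie above 0, mt-Tv, mt-Tl1 and mt-Tm lie below it with wide intervals, and mt-Nd1 and mt-Nd6 lie below 0 without passing.

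Transfer RNAs carry amino acids to the mitochondrial ribosome, and few reads fell in them. All 22 together had 411 to 2831 counts per library, 1.05, 2.03 and 7.396 per 100 coding counts under DMSO and 0.533, 1.22 and 0.694 under erastin. No read was counted in 7 of the 22 in any library (3 counts, the floor used here, would be 0.15 to 0.22 CPM), and 4 had at least 10 reads in every library. The 14 on the plus strand held 403 to 2794 counts per library and the 8 on the minus strand 5 to 38. Of the 6 that passed the filter, 3 were lower with erastin and 0 higher. The background was 21.5% for calls as lower and 43.1% for calls in either direction. The other 16 had too few reads to be tested.

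mt-Tv, which lies between the ribosomal RNA genes and was shown above, had 12.7, 30.9 and 113.5 CPM under DMSO and 3.96, 18.3 and 9.13 CPM under erastin (log2 fold change -2.34, SE 0.59, edgeR adjusted p = 0.00566). mt-Tm, between mt-Tq and mt-Nd2, had 12.1, 15.8 and 79.0 CPM under DMSO and 8.47, 11.55 and 7.88 CPM under erastin (log2 fold change -1.93, SE 0.50, edgeR adjusted p = 0.00648). mt-Tl1, between mt-Rnr2 and mt-Nd1, had 2.19, 4.43 and 14.9 CPM under DMSO and 1.44, 3.11 and 0.622 CPM under erastin (log2 fold change -2.06, SE 0.62, edgeR adjusted p = 0.0153). DMSO replicate 3 was the highest library for all 3, and only in mt-Tm did the groups not overlap.

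Without DMSO replicate 3, mt-Tm alone passed, at a log2 fold change of -0.59 (edgeR adjusted p = 0.0423), while mt-Tv had -1.09 (adjusted p = 0.0547) and mt-Tl1 -0.97 (adjusted p = 0.203). The call of mt-Tl1 was also lost without erastin replicate 1 or 3 and with DESeq2. DMSO replicate 3 also had the highest share of counts in other short RNAs (small nucleolar, small nuclear, small Cajal body-specific, miscellaneous and micro RNAs, Mir6236 left out), at 1.07%, against 0.63% and 0.754% in the other DMSO and 0.418% to 0.595% in the erastin libraries. Of 205 genes tested from those 5 classes, here without leaving out Mir6236, 86 were lower and 1 higher. Among all genes tested, 21.5% were called lower and 21.6% higher. The median log2 fold change of the 205 was -0.97, against -0.0014 over all genes tested. After the GC and length offset the log2 fold changes of mt-Tv, mt-Tm and mt-Tl1 were -1.42, -0.82 and -1.07 (edgeR adjusted p = 0.00589, 0.0114 and 0.0666), and the part of the short RNA shift in what remained was not tested. mt-Tt, the most counted transfer RNA gene that did not pass, had 1.81, 1.497 and 4.98 CPM under DMSO and 4.56, 3.89 and 2.13 CPM under erastin (log2 fold change 0.37, 95% interval -0.65 to 1.39). mt-Tw and mt-Tp also did not pass, at -0.37 and -0.63. mt-Ta, on the minus strand, was not tested and had 3, 25 and 20 reads under DMSO and 1, 2 and 2 under erastin. mt-Tf and mt-Ti had 0 to 39 and 2 to 15 reads per library.

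The nuclear genes that read and process the mitochondrial genome were followed through a list of 63 genes in 6 role groups. Of 61 tested, 19 were higher and 4 lower with erastin, with a median log2 fold change of 0.24 against -0.0014 over all genes. The background was 21.6% called higher and 21.5% called lower, which also stands beside the counts of each role group below. Without erastin replicate 1 the list had 13 higher and 1 lower. After the GC and length offset it had 15 higher and 5 lower, and 18 of the 23 calls were kept in the same direction.

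Transcription genes had 3 of 10 tested higher and 0 lower. Tfam, which packages mitochondrial DNA and opens its promoters, had 23.2, 19.3 and 15.0 CPM under DMSO and 38.0, 34.4 and 46.7 CPM under erastin, a 2.07-fold rise without overlap (log2 fold change 1.05, SE 0.16, edgeR adjusted p = 9.0e-05). Mterf3, a factor of the transcription termination family, rose from 15.9 ± 0.768 to 25.7 ± 1.89 CPM (mean ± SD, n = 3; edgeR adjusted p = 0.000794). Polrmt, the RNA polymerase itself, had 25.0 ± 7.75 and 30.2 ± 2.56 CPM (SD, n = 3) and did not pass (log2 fold change 0.28, edgeR adjusted p = 0.22). In the group for DNA replication and packaging, 2 of 12 were higher and 2 lower. Lonp1, the matrix protease that degrades damaged proteins and TFAM, had 163, 186 and 205 CPM under DMSO and 330, 334 and 353 CPM under erastin (log2 fold change 0.88, SE 0.08, edgeR adjusted p = 1.06e-06). Ssbp1, the single-strand DNA binding protein, rose from 5.39 ± 1.94 to 9.68 ± 1.33 CPM, while Polg, the DNA polymerase, fell from 55.0 ± 3.83 to 45.9 ± 2.45 CPM and Dguok, a nucleoside kinase, from 16.2 ± 0.794 to 11.8 ± 1.38 CPM (mean ± SD, n = 3; edgeR adjusted p = 0.0205, 0.0423 and 0.0363). Ssbp1, Polg and Dguok passed in only 12, 9 and 9 of their 17 alternatives. Ssbp1 lost its call after the GC and length offset (log2 fold change 0.64, edgeR adjusted p = 0.0604) and without DMSO replicate 1 or 3 or erastin replicate 2 or 3, Polg without any 1 library other than DMSO replicate 2, and Dguok without any 1 library other than erastin replicate 3.

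Processing and maturation genes had 5 of 17 higher and 0 lower. Trnt1, which adds the CCA end to transfer RNAs of the mitochondria and the cytosol, had 23.6, 23.3 and 26.0 CPM under DMSO and 58.7, 46.2 and 57.45 CPM under erastin (log2 fold change 1.16, SE 0.12, edgeR adjusted p = 1.82e-06). Trmt10c, a subunit of the RNase P that cuts transfer RNA 5′ ends, rose from 12.7 ± 0.69 to 24.7 ± 1.62 CPM (mean ± SD, n = 3; edgeR adjusted p = 6.47e-05). Its partner Hsd17b10 and the 3′ end nuclease Elac2 had log2 fold changes of -0.047 and 0.0054 and did not pass. The direction of Trnt1 and Trmt10c was opposite to that of the 3 transfer RNAs called, and no test related them.

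Stability and turnover genes had 5 of 10 higher and 1 lower. Ptcd1, a pentatricopeptide protein, rose from 19.2 ± 1.76 to 32.0 ± 5.44 CPM and Lrpprc, which stabilises mitochondrial messengers, from 79.6 ± 0.724 to 102 ± 7.39 CPM (n = 3; adjusted p = 0.000857 and 0.00278 by edgeR). Rexo2, an exonuclease that degrades short RNA fragments, fell from 111 ± 9.93 to 77.4 ± 5.09 CPM (mean ± SD, n = 3; edgeR log2 fold change -0.52, adjusted p = 0.000309). Pnpt1 and Supv3l1, the exonuclease and helicase of the mitochondrial degradosome, had log2 fold changes of 0.040 and -0.051 and did not pass. In the FASTK family of RNA-binding proteins 2 of 6 were higher, Fastkd2 (13.6 ± 1.66 to 21.8 ± 0.653 CPM) and Fastkd5 (2.80 ± 0.734 to 6.38 ± 1.6 CPM; n = 3, adjusted p = 0.00167 and 0.00732 by edgeR). Among nuclear regulators 2 of 6 were higher and 1 lower. Gabpa and Gabpb1, subunits of a transcription factor for respiratory genes, rose by log2 fold changes of 0.51 and 0.43 (edgeR adjusted p = 0.000397 and 0.0224), and Esrra, a nuclear receptor of the same programme, fell by 0.40 (edgeR adjusted p = 0.0238). The calls of Fastkd5, Gabpb1 and Esrra were lost without erastin replicate 1, with adjusted p-values of 0.0674, 0.0588 and 0.108 by edgeR. Gabpb1 also lost its call after the GC and length offset (log2 fold change 0.33, edgeR adjusted p = 0.0624) and without DMSO replicate 2 or erastin replicate 3, and Esrra lost its call with scaling by total count (log2 fold change -0.33, edgeR adjusted p = 0.0528) and without DMSO replicate 1 or 3 or erastin replicate 2. The coactivator gene Ppargc1a was below the filter, with means of 0.177 CPM under DMSO and 0.516 CPM under erastin.

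**Figure D5:**
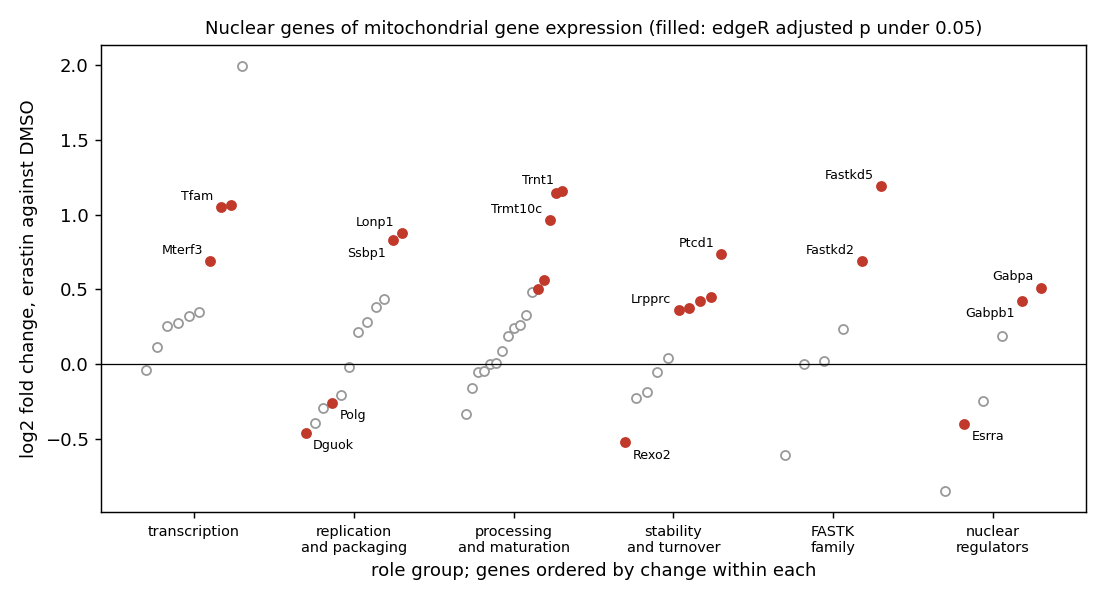
Log2 fold changes of the 61 tested nuclear genes of mitochondrial gene expression in 6 role groups, ordered by value within each group and filled where the edgeR adjusted p-value was under 0.05. The 19 genes called higher include Trnt1 at 1.16 and Tfam at 1.05, and the 4 called lower are Rexo2, Dguok, Esrra and Polg.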

How the data were processed

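The authors deposited raw read counts per gene, with no normalization, in 6 columns, each assigned by the sample number it shares with a label; 0 columns were unused. HTSeq 0.9.1 and SAMtools are named per the submitters' processing notes, with the build mm10; aligner, annotation, strand setting and treatment of multi-mapped reads are not given in the sources used here. Identifiers without version were matched to GENCODE M21 (GRCm38), 42462 of 43346 (98%). All genes were fitted with edgeR 4.0.16 in R 4.3.3: filterByExpr (minimum count 10, total 15; 14000 genes kept), TMM factors, quasi-likelihood test with treatment as the only term, and Benjamini-Hochberg adjustment over all 14000 genes with a threshold of 0.05. Total counts were 13333911 to 20509970; the floor of 3 counts covers counting error only. Shares and ratios were compared by two-sided exact permutation tests. Copies were found with BLAST and by exact 50-base windows in M21 transcripts. The alternatives are given in the closing section, with DESeq2 1.42.0 and mgcv 1.9.3. Members, lists and rules were chosen with earlier results of these data known. Named were all coding and ribosomal RNA genes, each transfer RNA gene called and the next 6 by count, and up to 2 genes per direction and role group by p-value; other names were chosen after their values were seen.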

Additional observations from a re-analysis of the deposited data

How the results depend on the processing

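Results were recomputed with RLE, upper-quartile, total-count and non-mitochondrial scaling, no filter, a filter of 1 CPM in 3 libraries, DESeq2, thinning to the smallest library, an adjusted p-value under 0.01, a GC and length offset, a replicate block, and each library left out; the sum with the chromosome 1 copies was added after seeing the data. Coding genes called, 5 as reported, were 3 at an adjusted p under 0.01, 2 after the offset, 3 after the offset with the replicate block and 2 to 5 with 1 library left out. Upper-quartile factors gave 4 higher and 1 lower, mt-Nd1. Transfer RNA genes called, 3 as reported, were 1 to 4 with 1 library left out. Ribosomal RNA genes called, 1 as reported, were 2 with total-count scaling, 2 with no filter, 2 with the replicate block, 2 with offset and block, and 1 to 2 with 1 library left out. Nuclear list genes called, 23 as reported, were 13 at an adjusted p under 0.01 and 14 to 21 with 1 library left out. Genes that had not passed changed sign: mt-Atp6 (reported at 0.14) was -0.032 after the offset, -0.063 with the block added and -0.28 to 0.50 with 1 library left out; mt-Nd3 (0.063) was -0.039 summed with its copy and -0.14 to 0.44 with 1 library left out; mt-Co3 ran from -0.24 to 0.0029 with 1 library left out; mt-Tw (-0.37) was 0.085 after the offset, 0.054 with the block added and -1.16 to 0.042 with 1 library left out; mt-Tp (-0.63) was 0.20 after the offset. The gene mt-Tt passed as higher after the offset (1.13, edgeR adjusted p = 0.0336; 0.0336 to 0.941 over its alternatives). The cause was not tested. Over all genes tested, equally numbered libraries had correlations of their deviations of -0.0055 to 0.040, beside -0.045 to 0.035 for differently numbered ones. These values cannot settle whether single genes are paired. The replicate block gave 5882 genes in place of 6028. The paired differences of the 7 shares and ratios, which equal the differences of the means by construction, each had p = 0.25 (exact sign-flip test, the smallest that 3 pairs allow). Upper-quartile factors and total-count scaling moved the higher share of calls from 50.2% to 44% and 57.1%. Shares were also taken over counts outside the mitochondrial genes, over counts without the 4 most counted genes and over nuclear protein-coding genes. Their exact permutation p-values did not change. Depth limits the transfer RNAs and mt-Atp8 most.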

Other observations

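The 7 pseudogenes of the chromosome 1 copy were counted as well. Gm28437, the copy of mt-Co3, had 236 to 438 reads in DMSO and 292 to 608 in erastin libraries, more in each library than mt-Co3 itself, which had 132 to 180 and 138 to 249. Gm10925, the copy of mt-Atp6, had 108 to 180 reads in DMSO and 142 to 296 in erastin libraries, beside 91 to 183 and 135 to 340 for mt-Atp6. Of 6 copies tested, 1 was called, Gm29216, the copy of the end of mt-Co1, at a log2 fold change of 0.64 (edgeR adjusted p = 0.016), where mt-Co1 had 0.21. Reads of the organelle and of the nuclear copy cannot be told apart where the sequences are identical.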
